A study of Mus musculus with 18 samples.

Results

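The 10 genes described here are known targets of the cellular response to low oxygen that act outside the glycolytic pathway. They were taken by name from a table of 52636 genes, and each name matched 1 row. Ero1l, P4ha1, P4ha2 and Plod2 encode enzymes of protein folding and collagen modification in the endoplasmic reticulum (ER), and Adm and Igfbp3 encode secreted proteins. Bnip3 encodes a mitochondrial protein, Ddit4 an inhibitor of the growth kinase mTORC1, Ankrd37 an ankyrin repeat protein, and Ndrg1 a cytoplasmic stress response protein. Ero1l, Adm, Plod2 and Igfbp3 were picked because earlier results of these data had shown them higher in tumors that lack Zfp36. The comparison of tumors between genotypes is therefore a description without a test for all 10 genes, and so is every comparison of tumors with skin for those 4.

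RNA was measured in mouse epidermal cells by RNA-seq. Control mice carried floxed Zfp36 alleles (fl/fl), and ΔK14 mice carried the same alleles with a Cre recombinase under the keratin 14 promoter, which is active in basal keratinocytes and hair follicle epithelium. The 3 stages were mock-treated skin, skin without tumor that had received DMBA and TPA and lay beside papillomas (treated skin), and the papillomas themselves (tumors). In this protocol the mutagen DMBA initiates and the phorbol ester TPA promotes papilloma growth. The cells were sorted as EpCAM+ CD45- CD140a- CD31-, although the labels name whole skin as the source and describe the treated samples as tumoral. The labels give no age. Each of the 6 groups had 3 columns of counts, but mock ΔK14 replicates 2 and 3 held the same count in every gene and were used once, which left 17 libraries with n = 2 in that group and n = 3 elsewhere. Nothing in the labels says that replicates were separate animals, so p-values measure only the spread between these samples.

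Hypoxia-inducible factors (HIFs) are the transcription factors behind this response. With ample oxygen, prolyl hydroxylases mark the HIF α subunit for the von Hippel-Lindau protein, which sends it to the proteasome. With little oxygen the subunit persists, pairs with ARNT and binds short DNA elements with the core ACGTG or GCGTG near its target genes. Zfp36 encodes tristetraprolin, a protein that binds AU-rich elements of mRNAs, mostly in the 3′ untranslated region, and leads them to decay. In GRCm38 the genes of the ER enzymes lie at chr14:45283087-45318771 (Ero1l), chr10:59323296-59373304 (P4ha1), chr11:54100095-54131665 (P4ha2) and chr9:92542223-92608428 (Plod2). Those of the secreted proteins lie at chr7:110627661-110629820 (Adm) and chr11:7206086-7213923 (Igfbp3). The others lie at chr7:138890836-138909519 (Bnip3), chr10:59949669-59951834 (Ddit4), chr8:45996902-46005707 (Ankrd37) and chr15:66929318-66969640 (Ndrg1). The letters of both kinds of element can be read from the sequence of the 10 genes, independently of their RNA levels.

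Promoter windows from RefSeq (GRCm38.p6), reaching from 250 bases before to 50 bases after a gene's start, were found for 8 of the 10 genes, with Ero1l listed as Ero1a. The remaining genes were Plod2 and Ndrg1. ACGTG, searched on both strands, was present in the windows of 6 of these 8 genes, against 19.6% of 32851 mouse windows. The windows of Adm and Igfbp3 held GCGTG but not ACGTG, and GCGTG was found in 32.4% of all windows. One site for each of the 6 genes is shown to set the HIF core beside the genes it belongs to, written 5′ to 3′ on the strand of the gene with the core in capitals. CACGT is the core read from the opposite strand.
Ero1l: cgcgcgccgctgCACGTccgcaggggagg
P4ha1: tgtgacagagcgCACGTagcgagggctgc
P4ha2: tgtgcatcgcatACGTGcagcgcgtggcg
Bnip3: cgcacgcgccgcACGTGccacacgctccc
Ankrd37: cagtgtttgggtACGTGaggccgcagcgg
Ddit4: agaacgttgcgaACGTGcgcccggtgcct
The Ero1l site lay on the minus strand at chr14:45318619-45318647, and its core began 63 bases before the start. The P4ha1 site lay at chr10:59323268-59323296 (plus strand, core 16 bases before the start) and the P4ha2 site at chr11:54100834-54100862 (plus strand, 78 bases before). The Bnip3 site was at chr7:138909597-138909625 (minus strand, 107 bases before), where the letters CACGTG form a palindrome that is counted once on each strand. Those of Ankrd37 and Ddit4 were on the minus strand at chr8:45999840-45999868 and chr10:59951941-59951969, beginning 6 and 187 bases before the start. All distances are counted from the RefSeq start of the window. The gene spans given above come from GENCODE and can begin elsewhere. By those spans the Ero1l, P4ha2 and Ankrd37 sites lie inside the gene and not before it. These matches describe letters in a window. They were not compared with windows of like base composition, and binding was not measured here.

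The AU-rich heptamer TATTTAT was present in the longest annotated 3′ untranslated region (GENCODE, GRCm38) of 5 of the 10 genes, against 27.6% of 20939 genes with an annotated region. Ero1l had 3 heptamers in 2941 bases and Plod2 had 2 in 1198 bases. P4ha1 had 1 in 2230 bases, Igfbp3 1 in 1435 bases and Ndrg1 1 in 1549 bases. These 5 regions were all longer than the median region of 961 bases. The stricter nonamer TTATTTATT, found in 7.66% of genes, was in none of the 10. Adm, P4ha2, Bnip3, Ankrd37 and Ddit4 had no heptamer, in regions of 223 to 1079 bases. The first heptamer of each gene is shown in capitals, written 5′ to 3′ on the strand of the gene, since these are the letters through which tristetraprolin is known to act on other mRNAs.
Ero1l: tattagggccTATTTATactacaagtt
Plod2: tgaaagttggTATTTATttctgtgctt
P4ha1: aacaatgaccTATTTATgatcttaaat
Igfbp3: tcttgcaatgTATTTATaaatagtaaa
Ndrg1: aagatgtttgTATTTATttccagacca
They lay in the 3′ untranslated regions at chr14:45285483-45285509 (Ero1l, minus strand), chr9:92607453-92607479 (Plod2, plus), chr10:59371919-59371945 (P4ha1, plus), chr11:7206112-7206138 (Igfbp3, minus) and chr15:66929340-66929366 (Ndrg1, minus).

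Total counts ran from 2808550 to 9617985 per library. Levels are given as CPM, the count of a gene scaled to its library's size after TMM normalization. A call means a fold change over 2 together with an adjusted p below 0.05 in edgeR's quasi-likelihood test. Zfp36, the deleted gene, was at 152 to 716 CPM in fl/fl libraries and 10.1 to 38.6 CPM in ΔK14 libraries, with no overlap at any stage. Keratinocyte markers summed to 3470 to 31274 CPM in each library and were all detected in every group. Of the cell types that the sort should remove, fibroblast markers summed to 506 to 1678 CPM in mock skin, 377 to 955 CPM in treated skin, 82.9 to 197 CPM in fl/fl tumors and 30.4 to 386 CPM in ΔK14 tumors. Dcn weighed heavily in these sums, at 230 to 843 CPM in treated ΔK14 skin and 0.19 to 2.91 CPM in ΔK14 tumors. From treated skin to tumors, 3 of the 6 fibroblast markers had a log2 fold change above 0 in ΔK14 cells (median -0.01). In fl/fl cells 1 of 6 did (median -0.85). Between tumor genotypes 4 of 6 were above 0, with a median of 0.70. The sum of 8 leukocyte markers was higher in ΔK14 tumors, at 64.2 to 94.2 CPM, than in fl/fl tumors, at 20.9 to 36.1 CPM, with Cd207 listed at 0 in both and Cd3e at 0 in fl/fl tumors. Cd74, the invariant chain of antigen presentation, made up most of that sum, at 54.9 to 83.6 CPM in ΔK14 and 10.7 to 28.6 CPM in fl/fl tumors. Of the 4 leukocyte markers tested between tumor genotypes it was the only one with a value above 0, and their median was -0.03. Endothelial markers summed to at most 39.7 CPM in any library. The part of these cells in the results below was not tested, and in such bulk samples fewer cells of a type and less RNA per cell cannot be told apart.

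**Figure D1:**
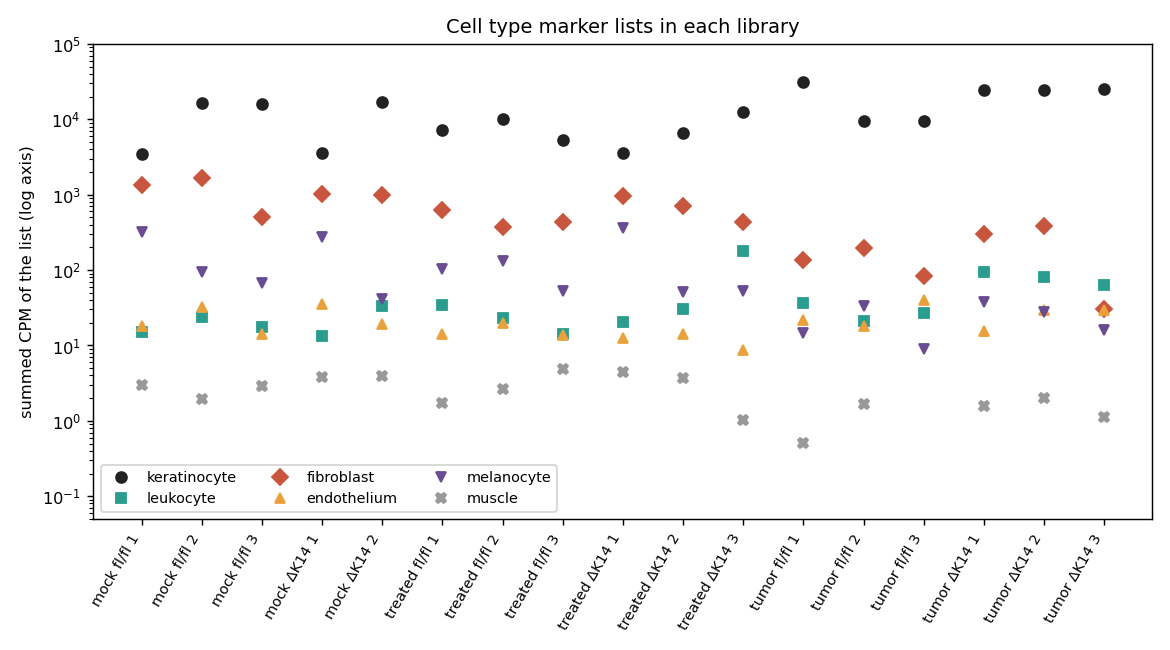
Summed CPM (log axis) of 6 marker lists in each of the 17 libraries, 1 symbol per list. Keratinocyte markers lead in every library; in mock skin replicate 1 of both genotypes is lower for keratinocyte and higher for melanocyte markers than the other mock libraries, and tumor fl/fl replicate 1 is at 31274 CPM against 9507 and 9366 CPM in the other fl/fl tumors. The muscle sum of tumor fl/fl replicate 3 is 0 and not drawn.

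Libraries that stood apart touch several of the genes. In mock skin, replicate 1 of both genotypes summed to 3470 and 3593 CPM over the keratinocyte markers, against 15789 to 16887 CPM in the other mock libraries, and to 319 and 279 CPM over the melanocyte markers, against 41.1 to 93.3 CPM. The same libraries were high for Plod2 and low for Igfbp3, Bnip3 and P4ha1. They were also the highest of their groups for Adm, Ero1l, Ankrd37 and Ddit4 and the lowest for P4ha2 and Ndrg1. Among fl/fl tumors, replicate 1 had the smallest total count of all libraries and was highest in its group for Adm, Ankrd37, Bnip3, Ddit4, Ero1l, Igfbp3, P4ha1 and P4ha2. For Ndrg1 it was the lowest. In treated ΔK14 skin, replicate 1 summed to 3576 CPM over the keratinocyte markers, against 6533 and 12399 CPM, and to 366 CPM over the melanocyte markers, against 51.6 and 52.7 CPM. It was the lowest of its group for Ero1l, P4ha1, P4ha2, Igfbp3, Bnip3 and Ndrg1. Replicate 3 of that group summed to 179 CPM over the leukocyte markers, against 20.6 and 30.4 CPM. What set these libraries apart was not tested.

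**Figure D2:**
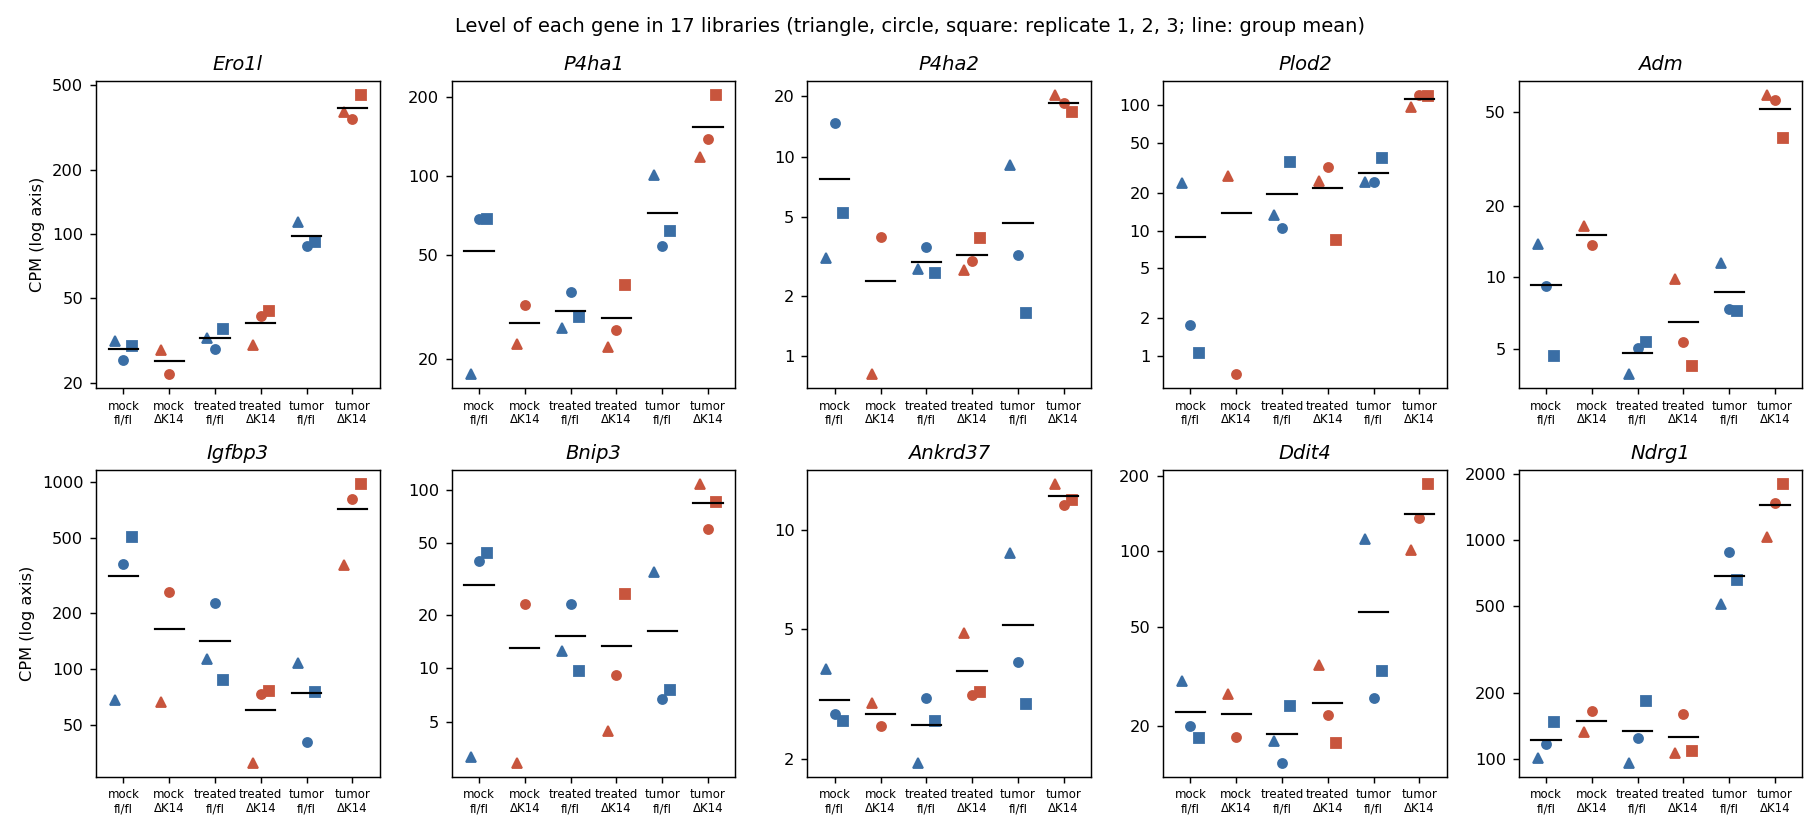
CPM of the 10 genes (log axis, a separate scale for each gene) in the 6 groups, with fl/fl in blue, ΔK14 in red, 1 symbol per library and a line at the group mean. The ΔK14 tumors have the highest group mean for every gene, with the 3 libraries above all fl/fl tumors except for Ddit4. For Igfbp3, tumor ΔK14 replicate 1 (359 CPM) lies below mock fl/fl replicates 2 and 3 (365 and 506 CPM).

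In tumors, the 10 genes were higher in ΔK14 than in fl/fl cells by a median of 1.84 on the log2 scale, while the median over all 14067 genes tested was -0.02. For 9 of the 10 the libraries of both genotypes did not overlap, where 13.6% of all genes tested were higher in ΔK14 tumors without overlap and 0.0284% were called. This contrast chose 4 of the genes, so the count is a description. The differences ran from 0.93 for Ndrg1 to 3.13 for Igfbp3, and the 5 genes with a heptamer (median 1.81, range 0.93 to 3.13) spanned the 5 without (median 1.99, range 1.21 to 2.47). Without tumor fl/fl replicate 1 the median of the 10 was 2.09, and the values of P4ha1, P4ha2, Bnip3, Ankrd37 and Ddit4 were 1.30, 2.72, 3.47, 1.73 and 2.16.

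**Figure D3:**
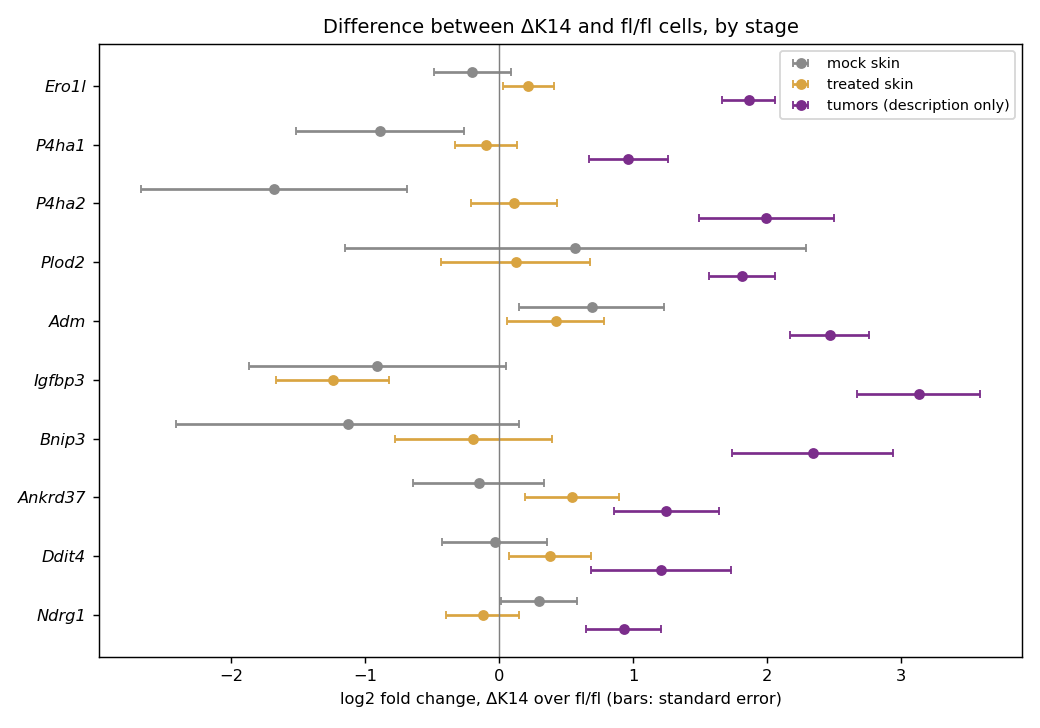
Log2 fold change of ΔK14 over fl/fl cells for each gene in mock skin, treated skin and tumors, with standard errors. The tumor values run from 0.93 to 3.13 and those in skin lie on both sides of 0, from -1.68 to 0.69 in mock skin and from -1.24 to 0.54 in treated skin.

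The enzymes of the ER come first. Ero1l encodes the oxidase that passes electrons from protein disulfide isomerase to oxygen and so drives disulfide formation. It stood between 22.0 and 43.5 CPM in all skin libraries. In fl/fl tumors it was at 114, 87.7 and 91.1 CPM, and in ΔK14 tumors at 373, 346 and 449 CPM. Skin, fl/fl tumors and ΔK14 tumors thus formed 3 tiers without overlap. The tumor levels exceeded treated skin by 1.56 ± 0.20 (log2, ± SE) in fl/fl and 3.25 ± 0.22 in ΔK14 cells, the latter a 9.51-fold difference.

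P4ha1 and P4ha2 encode alternative α subunits of collagen prolyl 4-hydroxylase, the enzyme that stabilizes the collagen triple helix and needs oxygen as a substrate. P4ha1 was at 101, 54.1 and 61.6 CPM in fl/fl tumors and at 119, 138 and 204 CPM in ΔK14 tumors, with treated skin between 22.2 and 38.2 CPM. Mock fl/fl skin held 17.5, 68.7 and 68.6 CPM and overlapped the fl/fl tumors (0.45 ± 0.52 for tumors against mock skin, adjusted p = 0.613). P4ha1 rose from treated skin to tumors in fl/fl cells by 1.21 ± 0.27 (adjusted p = 0.0171) and in ΔK14 cells by 2.32 ± 0.27 (adjusted p = 0.000715). The fl/fl call was lost without any 1 of the treated libraries (adjusted p = 0.087, 0.051 and 0.0671 without replicates 1, 2 and 3), in a single fit of all libraries (adjusted p = 0.0501) and without tumor fl/fl replicate 1, where the difference was 0.91, less than a 2-fold change. P4ha2 was much scarcer, at 9.03, 3.21 and 1.64 CPM in fl/fl tumors and 20.4, 18.5 and 16.7 CPM in ΔK14 tumors. In mock fl/fl skin it was at 3.11, 14.7 and 5.22 CPM. It rose from treated skin to tumors in ΔK14 cells by 2.44 ± 0.26 (adjusted p = 0.000521), while in fl/fl cells the difference was 0.51 ± 0.58 (adjusted p = 0.539), and -0.19 without tumor fl/fl replicate 1. Its lowest values rested on 5 counts in tumor fl/fl replicate 3 and 3 counts in mock ΔK14 replicate 1, and counting error alone is large there.

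Plod2 encodes a lysyl hydroxylase that acts on collagen telopeptides and sets the kind of crosslinks formed. It was at 24.6, 24.4 and 38.0 CPM in fl/fl tumors and at 97.1, 121 and 120 CPM in ΔK14 tumors. In treated skin it varied between 8.45 and 35.04 CPM without a difference between genotypes (0.12 ± 0.56, adjusted p = 0.984). Mock skin was split by library rather than genotype, with 24.1 and 27.1 CPM in replicate 1 and 0.721 to 1.77 CPM elsewhere. The ΔK14 tumors exceeded ΔK14 treated skin by 2.25 ± 0.42 and ΔK14 mock skin by 2.88 ± 0.996, and the latter value was 7.20 without mock ΔK14 replicate 1, which left a single mock library with 2 Plod2 counts.

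Other enzymes of collagen modification were called in part. Of 10 tested in ΔK14 tumors against treated skin, 4 were called higher and none lower, where 10.5% of all genes were called higher. They were P4hb (1.34 ± 0.17), the β subunit that joins P4ha1 and P4ha2, the lysyl hydroxylases Plod1 (1.51 ± 0.35) and Plod3 (1.01 ± 0.18), and the prolyl 3-hydroxylase P3h2 (1.45 ± 0.38). In fl/fl tumors 3 of 10 were called higher, namely P4ha3 (3.29 ± 0.54), P4hb (1.197 ± 0.24) and P3h2 (1.12 ± 0.30), where 7.5% of all genes were called higher. The median of the list was 0.96 in ΔK14 and 0.31 in fl/fl cells.

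Adm and Igfbp3 encode the secreted proteins of the set. Adm encodes adrenomedullin, a peptide that widens vessels and acts through Calcrl with a Ramp partner. It was at 11.5, 7.33 and 7.21 CPM in fl/fl tumors and at 59.0, 56.3 and 38.9 CPM in ΔK14 tumors, a log2 difference of 2.47 ± 0.29. The fl/fl tumors lay within the range of mock skin, at 4.64 to 16.5 CPM, so that tumors stood above every skin library in ΔK14 cells and not in fl/fl cells. From mock to treated ΔK14 skin the value was -1.23 ± 0.44 without overlap (as 8.3% of all genes were lower), at 16.5 and 13.7 CPM against 9.87, 5.35 and 4.23 CPM, with an unadjusted p of 0.0299 in edgeR's test that did not pass adjustment (0.953). None of the Adm receptor genes tested, 4 in fl/fl and 3 in ΔK14 cells, was called between tumors and treated skin. Of all genes 7.5% were called higher and 10.5% lower in fl/fl cells, and 10.5% and 15.5% in ΔK14 cells.

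Igfbp3 encodes the major carrier of insulin-like growth factors in blood and tissue. Mock skin held 68.3, 365 and 506 CPM in fl/fl and 66.6 and 258 CPM in ΔK14 cells, the low value being replicate 1 in both. Treated skin held 113, 225 and 86.9 CPM in fl/fl and 31.6, 73.5 and 76.2 CPM in ΔK14 cells. The ΔK14 libraries were thus the lower ones in treated skin, all below the fl/fl libraries as were 5.93% of all genes, with a log2 difference of -1.24 ± 0.42 and an unadjusted p of 0.0178 that did not pass adjustment (0.897). The value was -0.75 without treated fl/fl replicate 2 and -0.94 without treated ΔK14 replicate 1. In tumors the order was the opposite, at 108, 40.6 and 75.7 CPM in fl/fl and 359, 812 and 976 CPM in ΔK14 cells. Tumors exceeded treated skin by 3.46 ± 0.45 in ΔK14 cells, while in fl/fl cells the value was -0.95 ± 0.43, and -0.47 without treated fl/fl replicate 2. Against fl/fl mock skin it was -2.10 ± 0.70, and with 1 library left out -2.57 to -1.56.

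Among 9 other genes of the IGF system tested in ΔK14 tumors against treated skin, 3 were called higher and 2 lower, against 10.5% and 15.5% of all genes. Higher were the binding protein Igfbp7 (1.60 ± 0.16), the receptor that clears IGF2, Igf2r (1.67 ± 0.21), and the insulin receptor substrate Irs2 (1.13 ± 0.19). Lower were the binding protein Igfbp5 (-5.12 ± 0.51) and Irs1 (-1.59 ± 0.32). Of 11 tested in fl/fl cells, Igfbp2 was called higher (3.26 ± 0.67) and Igf2 lower (-3.07 ± 0.93), against 7.5% and 10.5% of all genes. The list thus held calls in both directions in each genotype.

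Bnip3 encodes a protein of the outer mitochondrial membrane that recruits the autophagy machinery to damaged or surplus mitochondria. It was at 34.6, 6.72 and 7.54 CPM in fl/fl tumors and at 108, 59.9 and 84.9 CPM in ΔK14 tumors. Skin libraries ranged widely, from 2.98 to 44.1 CPM, and both lowest values were mock replicate 1. In ΔK14 cells it rose from treated skin to tumors by 2.59 ± 0.54 (adjusted p = 0.00683). In fl/fl cells the difference was 0.02 ± 0.64 (adjusted p = 0.985), and -1.08 without tumor fl/fl replicate 1. The antisense gene Gm45507 overlaps 504 exonic bases of Bnip3, and whether the counting used strand is not given in the sources used here, so that reads from either strand cannot be told apart.

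Ddit4 encodes REDD1, which restrains mTORC1 when oxygen or energy is short and also responds to other stresses. It was the only gene of the 10 whose tumor libraries overlapped between genotypes, with 112, 26.0 and 33.1 CPM in fl/fl and 102, 136 and 187 CPM in ΔK14 cells. The overlap came from tumor fl/fl replicate 1, and the log2 difference was 1.21 ± 0.52 with it and 2.16 without it. From treated skin to tumors Ddit4 rose in ΔK14 cells by 2.42 ± 0.32 (adjusted p = 0.00117). In fl/fl cells the difference was 1.55 ± 0.54 (adjusted p = 0.072), with all 3 tumors above all 3 treated libraries. Without tumor fl/fl replicate 1 the difference fell to 0.63 (adjusted p = 0.0804). Of 11 alternatives 4 gave a call, among them DESeq2 (adjusted p = 0.0273), a single fit of all libraries (adjusted p = 0.0306) and the fit without tumor fl/fl replicate 2 (adjusted p = 0.0397), and the highest adjusted p of the 11 was 0.197.

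Genes of mTORC1 control, autophagy and mitophagy were listed beside Bnip3 and Ddit4. Of 11 tested in ΔK14 tumors against treated skin, Ddit4l, a relative of Ddit4, was called higher (1.59 ± 0.44) and Sesn1, a sestrin that restrains mTORC1, lower (-1.34 ± 0.26), against 10.5% and 15.5% of all genes. In fl/fl cells Sesn1 was called lower (-1.49 ± 0.25) and none higher, against 10.5% and 7.5% of all genes. These shares are near or below those of all genes. The medians of the list were -0.02 in ΔK14 and -0.01 in fl/fl cells.

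Ankrd37 encodes a small ankyrin repeat protein. It was among the scarcest of the 10, with 8.53, 3.97 and 2.95 CPM in fl/fl tumors and 13.9, 11.98 and 12.3 CPM in ΔK14 tumors. It rose from treated skin to tumors in ΔK14 cells by 1.68 ± 0.28 (adjusted p = 0.00305), the smallest of the 10 values in that genotype, and in fl/fl cells the difference was 0.93 ± 0.47 (adjusted p = 0.179), and 0.49 without tumor fl/fl replicate 1. In treated skin the ΔK14 libraries, at 4.84, 3.13 and 3.21 CPM, lay just above the fl/fl libraries, at 1.95, 3.07 and 2.61 CPM, by 0.54 ± 0.35 (adjusted p = 0.914), and by 0.31 without treated ΔK14 replicate 1. Such an order was found for 5.77% of all genes. Its exons overlap the opposite-strand genes Ufsp2 and Lrp2bp by 57 and 349 bases.

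Ndrg1 encodes a protein linked to growth arrest, differentiation and stress, and was the member with the highest CPM in tumors. It was at 508, 880 and 655 CPM in fl/fl tumors and 1034, 1463 and 1802 CPM in ΔK14 tumors, against 96.3 to 184 CPM in all skin libraries. It rose from treated skin to tumors in fl/fl cells by 2.30 ± 0.31 (adjusted p = 0.00342) and in ΔK14 cells by 3.40 ± 0.29 (adjusted p = 0.000239). It was also called against mock skin in both genotypes, at 2.45 ± 0.31 in fl/fl cells (adjusted p = 0.0129) and 3.17 ± 0.36 in ΔK14 cells (adjusted p = 0.00709). Of its 3 relatives Ndrg2, Ndrg3 and Ndrg4, Ndrg2 was called lower in tumors than in treated skin in both genotypes (-1.59 ± 0.25 in ΔK14 and -1.46 ± 0.37 in fl/fl cells) and none higher. The opposite-strand genes Gm17035 and Gm2895 overlap 419 and 137 exonic bases of Ndrg1.

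Compared with treated skin, all 6 genes that were not themselves chosen on tumor values rose in ΔK14 tumors, where 10.5% of all genes were called higher. All 10 genes were still chosen with earlier results of these data known, and the other 4 were selected on tumor values. The 6 may therefore not be independent of the tumor values. Their calls against treated skin, and against mock skin below, are not an unselected test against the shares of all genes. The same 6 were called without treated ΔK14 replicate 1 and without replicate 3, though the shares of all genes called in those fits are not given. In fl/fl cells 2 of the 6, Ndrg1 and P4ha1, rose, where 7.5% of all genes were called higher, and the other 4 had values of 0.02 to 1.55. All 10 genes had ΔK14 tumors above ΔK14 treated skin without overlap, and 5 of 10 did so in fl/fl cells, where 28.4% and 21.9% of all genes tested did. The medians of the 10 were 2.51 and 0.87. Because the difference between these changes rests in part on the contrast that chose the genes, it was not tested. Each genotype had its own treated libraries.

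**Figure D4:**
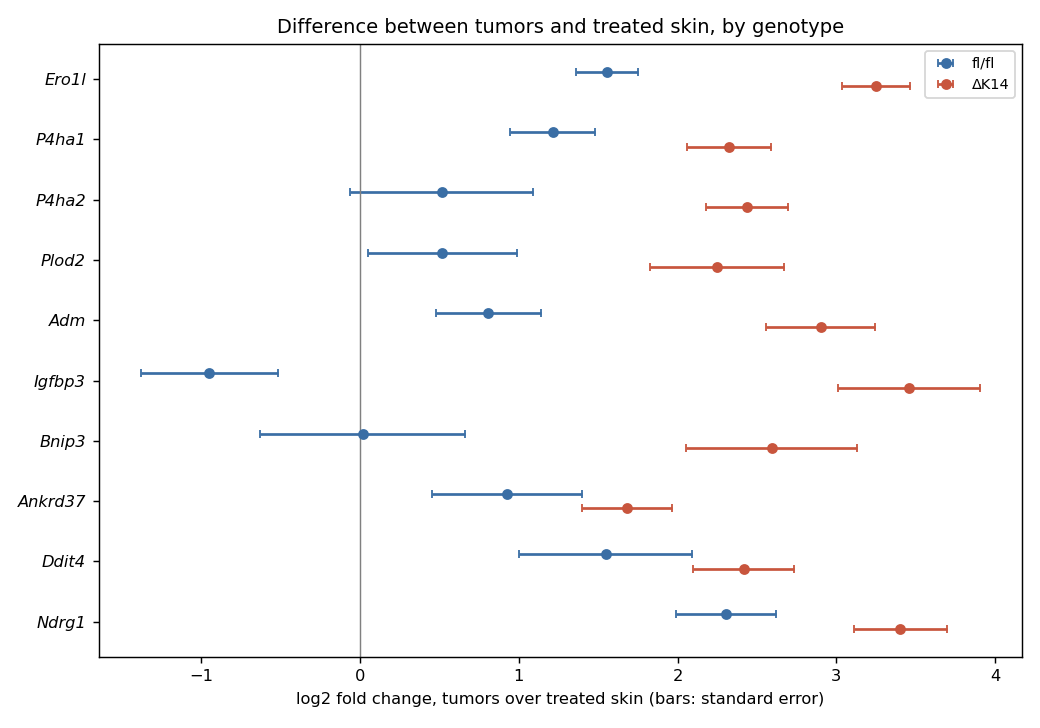
Log2 fold change of tumors over treated skin for each gene in fl/fl (blue) and ΔK14 (red) cells, with standard errors. Each gene lies further right in ΔK14 cells; Igfbp3 is at -0.95 in fl/fl and 3.46 in ΔK14 cells.

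Against mock skin, ΔK14 tumors were higher without overlap for all 10 genes, where 28.6% of all genes were, and 5 of the 6 tested genes rose, where 7.05% of all genes were called higher. P4ha1 rose by 2.40 ± 0.35, P4ha2 by 2.92 ± 0.61, Ankrd37 by 2.10 ± 0.37 and Ddit4 by 2.55 ± 0.37. The P4ha2 value was 2.18 without mock ΔK14 replicate 1 and 4.46 without replicate 2, which left a single mock library with 3 counts. Bnip3 had a value of 2.64 ± 0.77 (adjusted p = 0.0641) and passed by DESeq2 (adjusted p = 0.00171) and without either mock ΔK14 library (1.83 without replicate 1 and 4.81 without replicate 2). With only 2 mock ΔK14 libraries these calls depended on single tumors, and their number was 3, 0 and 1 without tumor ΔK14 replicate 1, 2 and 3. The shares of all genes called in those fits are not given, so the counts do not show a change particular to these genes. In fl/fl cells Ndrg1 was the only call among the 6, where 2.22% of all genes were called higher, and 3 of the 10 genes (Ero1l, Plod2 and Ndrg1) were higher without overlap, where 15.5% of all genes were. The Ndrg1 call was lost without mock fl/fl replicate 2 or 3 or tumor fl/fl replicate 2 or 3 (adjusted p = 0.0881, 0.0561, 0.0505 and 0.0668).

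Without tumors in the comparison, no gene of the 10 was called. Treated skin against mock skin gave no call among the 10 or among all genes (0%) in either genotype. At an unadjusted p under 0.05 in edgeR's test, 0 of the 10 genes passed in fl/fl and 1 (Adm) in ΔK14 cells, and 913 of 16601 and 763 of 15891 of all genes did. The values ran from -1.35 ± 0.60 for P4ha2 to 1.11 ± 1.14 for Plod2 in fl/fl cells and from -1.43 ± 0.63 for Igfbp3 to 0.63 ± 1.11 for Plod2 in ΔK14 cells. The Igfbp3 value was -2.08 without mock ΔK14 replicate 1 and -0.095 without replicate 2. In ΔK14 cells Ero1l (0.59 ± 0.30) and Ankrd37 (0.42 ± 0.47, and 0.20 without treated ΔK14 replicate 1) were higher in treated skin without overlap, as were 7.8% of all genes, and did not pass the test.

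The fl/fl comparison of treated with mock skin changed without mock fl/fl replicate 1. Of the 10 genes, 5 were then called, where 15.1% of all genes were called in either direction. Plod2 was higher in treated skin by 3.92 (adjusted p = 0.00732), while P4ha1 (-1.15), P4ha2 (-1.70), Igfbp3 (-1.60) and Bnip3 (-1.49) were lower, with adjusted p of 0.00382, 0.0347, 0.0201 and 0.0152. The keratinocyte and melanocyte marker sums of that library, given above, moved with these values, and their part in the result was not tested.

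Between genotypes, none of the 10 genes was called in mock skin (0% of all genes) or in treated skin, where Zfp36 was the only call (0.00616%). Zfp36, the deleted gene, was itself not called in mock skin, at -4.13 ± 0.86 without overlap. Its p in edgeR's test was 0.00395 unadjusted and 0.99998 adjusted. The mock test thus missed a known difference, and its lack of calls does not show that the genotypes were alike. In mock skin the values of the 10 genes ran from -1.68 ± 0.996 for P4ha2 to 0.69 ± 0.54 for Adm. With 1 library left out the P4ha2 value ran from -3.22 to -0.83 and that of Adm from 0.38 to 1.18. In mock skin 0 of the 10 genes and 253 of 15920 of all genes had an unadjusted p under 0.05. In treated skin Igfbp3 was 1 of 901 genes of 16232 below that value. The change from mock to treated skin gave no call for a difference between genotypes among the 10 or all genes (0%), with values from -0.49 ± 1.80 for Plod2 to 1.80 ± 0.96 for P4ha2 (0.93 to 3.28 with 1 library left out), and 0 of the 10 genes and 257 of 17694 of all genes at an unadjusted p under 0.05. Standard errors of up to 1.80 show how little these unpaired tests of the mock groups could resolve. Same-numbered mock libraries of both genotypes deviated together (r = 0.93 and 0.84), and the main tests left that shared deviation in the error. DESeq2 gave no call among the 10 in the 4 pairwise comparisons of skin, and the shares of all genes it called are not given.

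Levels of different genes were compared per kilobase of exon, as mean CPM per kb ± SD. In treated skin Igfbp3, at 45.3 ± 23.5 in fl/fl and 19.3 ± 7.998 in ΔK14 cells, and Ndrg1, at 20.4 ± 6.76 and 19.0 ± 4.59, had the highest means and did not differ from each other beyond their spread in either genotype. In ΔK14 cells Ddit4, at 14.1 ± 5.27, also lay within the spread of both. In fl/fl tumors Ndrg1 led alone at 103 ± 28.5, followed by Ddit4 (32.6 ± 27.3), Igfbp3 (23.9 ± 10.7), Ero1l (18.5 ± 2.70) and P4ha1 (17.5 ± 6.11), which lay within each other's spread. In ΔK14 tumors Igfbp3 (229 ± 102) and Ndrg1 (217 ± 58.3) again could not be ordered, nor could Ddit4 (80.6 ± 24.4) and Ero1l (73.6 ± 10.05) below them. P4ha1 (37.4 ± 10.9), Bnip3 (37.2 ± 10.6) and Adm (31.8 ± 6.73) formed the next step, then Plod2 (20.9 ± 2.49) and Ankrd37 (8.27 ± 0.65). P4ha2 was the lowest at 2.97 ± 0.29.

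Over the 6 tumor libraries all 45 pairs of genes had a positive Pearson r of log2 CPM, with a median of 0.89, and over the 11 skin libraries 17 of 45 pairs did, with a median of -0.13. In skin P4ha1, P4ha2, Igfbp3 and Bnip3 were all positively correlated with each other (0.65 to 0.91), and Plod2 was negatively correlated with these 4 (-0.85 to -0.66). The tumor values include the difference between genotypes on which part of the genes was chosen, and the libraries share depth and composition, so these correlations are a description. Genes most like Ero1l over all 17 libraries were Vegfa (r = 0.98), the angiogenic growth factor, the chemokine Cxcl3 (0.98), Sprr2j-ps (0.98), the semaphorin Sema6d (0.97) and Gm26586 (0.97). Over the 11 skin libraries alone their r with Ero1l was 0.36 to 0.53. Sprr2j-ps and Cxcl3 were near 0 in skin, with group means of at most 0.12 and 0.22 CPM, so their r there says little. Genes most like Ddit4 were the T-box factor Eomes (0.97), the adhesion molecule Cadm4 (0.96), the ER stress gene Creld2 (0.96), Gm28502 (0.95) and Cxcl3 (0.95), with 0.36 to 0.83 in skin. Eomes and Gm28502 were likewise near 0 in skin, with group means of at most 0.32 and 0.06 CPM.

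Other lists of the response put the 10 genes in context. Of 25 other hypoxia targets tested in ΔK14 tumors against treated skin, 12 were called higher and 1 lower, against 10.5% and 15.5% of all genes, with a median of 1.05. Among them were Hmox1, which encodes the heme-degrading enzyme heme oxygenase 1 (4.04 ± 0.57), Vegfa (3.45 ± 0.27), the MYC antagonist Mxi1 (2.02 ± 0.23) and the HIF prolyl hydroxylase Egln3 (2.00 ± 0.25). Of the same 25 in fl/fl cells, 8 were called higher and 2 lower, against 7.5% and 10.5% of all genes, with a median of 0.37, and Hmox1 (3.27 ± 0.25) and Vegfa (1.97 ± 0.27) were again among those called higher. Glycolytic genes were called higher in 14 of 16 cases in ΔK14 and 11 of 16 in fl/fl cells, against the same 10.5% and 7.5%, with medians of 2.07 and 1.51. The median of the 10 genes was above that of glycolysis in ΔK14 cells and below it in fl/fl cells, a difference that was not tested. Of the 10, 4 were picked for being higher in ΔK14 tumors, so that choice in part sets this order.

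The oxygen sensing machinery itself gave 2 calls of 6 in each genotype, both higher (against 10.5% of all genes in ΔK14 and 7.5% in fl/fl cells), and they were the same genes. Hif1a rose from treated skin to tumors by 2.15 ± 0.41 in ΔK14 and 2.56 ± 0.24 in fl/fl cells, and Epas1, which encodes HIF-2α, by 1.12 ± 0.26 and 1.15 ± 0.24. Between the genotypes of tumors, no gene of this list, of the other hypoxia targets or of glycolysis was called by edgeR. Only 4 of 14067 of all genes (0.0284%) were called there, so the lack of calls does not set these lists apart. The study, also with edgeR, reports far more differentially expressed genes between tumor genotypes. What makes the numbers differ was not tested. Higher without overlap in ΔK14 tumors were 3 of 6, 13 of 25 and 8 of 16 genes of these lists, against 13.6% of all genes. The medians of the lists were 0.11, 0.53 and 0.84. The 9 of 10 given above includes the 4 genes picked on this contrast, so it cannot be ranked against these counts.

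**Figure D5:**
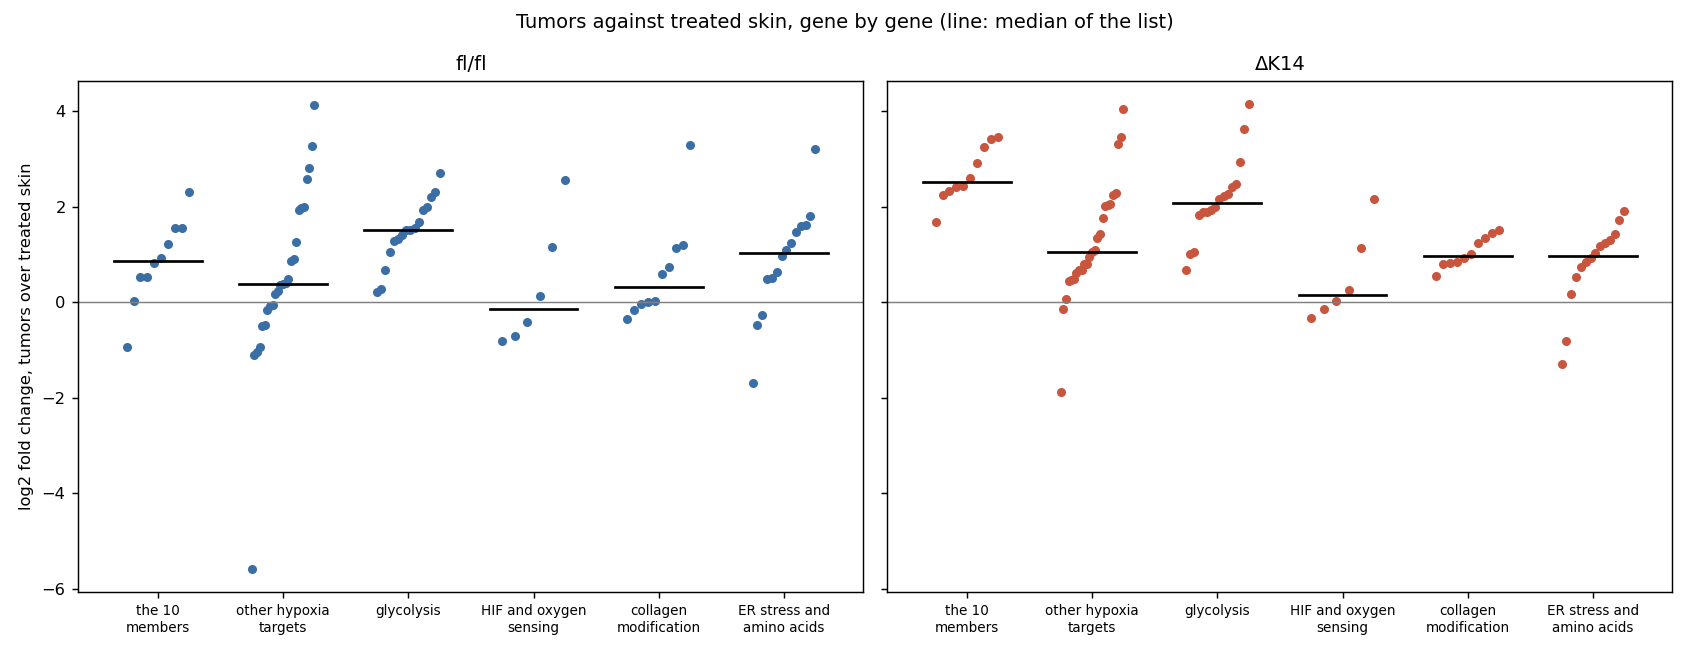
Log2 fold change of tumors over treated skin for each tested gene of 6 lists in fl/fl (left) and ΔK14 (right) cells, sorted by value within a list, with a line at the median. The medians of the 10 genes are 0.87 and 2.51, and those of glycolysis 1.51 and 2.07. Of the 10, 4 were picked for being higher in ΔK14 tumors.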

How the data were processed

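The deposited table held raw counts per gene for 18 columns, which the authors made from Ovation SoLo RNA-seq libraries of sorted cells. Its name points to featureCounts, while the submitters' processing notes name Trimmomatic 0.36, STAR 2.5.3, HTSeq 0.9.1, DESeq2 and mm10. The methods of the study name edgeR for these cells. Annotation release, strand use and duplicate removal are not given in the sources used here, and precision from counts covers counting error only.

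The 10 genes and all lists were chosen with earlier results of these data known. Every comparison was fitted on all genes of its own groups in R 4.3.3 with edgeR 4.0.16, using filterByExpr, TMM and the two-sided quasi-likelihood test with Benjamini-Hochberg adjustment. The fit was tried on simulated data only for the genotype comparisons in treated skin and in tumors, and for the difference between genotypes in the change from mock to treated skin. The outcome of that trial is not given here. Calls needed a fold change over 2 and an adjusted p below 0.05. CPM used TMM over all 17 libraries, log2 CPM for correlations a prior count of 2, and lengths the union of exons in GENCODE. Lists were described by counts and medians, and list genes named were calls with the smallest p, at most 5 per list and comparison. Genes like Ero1l and Ddit4 were the 5 with the highest r among 18252 genes. Alternatives were DESeq2 1.42.0, RLE scaling, no low-count filter, a single fit of all libraries, a block for the replicate number, and leaving out libraries one by one. Same-numbered samples deviated together (r over 0.1 over 1000 genes) in 5 of 24 pairs. Among them were both pairs of mock ΔK14 with mock fl/fl skin (0.93 and 0.84). Both pairs of treated with mock ΔK14 skin (0.74 and 0.21) were also among them. Numbers were not taken to pair samples in the main tests, so those tests ignored this shared deviation, and only the block used it.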

Additional observations from a re-analysis of the deposited data

Results flagged for a closer look

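Igfbp3 differed between genotypes in opposite directions in treated skin and in tumors, which drew attention because every library took part. In treated skin all 3 ΔK14 libraries lay below all 3 fl/fl libraries, with a log2 difference of -1.24, which ran from -1.50 to -0.75 with 1 library left out and did not pass adjustment in edgeR's test with the low-count filter. In tumors all 3 ΔK14 libraries lay above all 3 fl/fl libraries, with a log2 difference of 3.13. The tumor contrast helped to choose the gene, and the difference between the stages was not tested.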

How the results depend on the processing

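Between tumor genotypes, all 10 values stayed above 0 under RLE scaling, without the low-count filter, in a single fit, with the block and without each library. That contrast chose 4 of the 10 genes, and these fits reuse the same libraries. The stable direction is therefore a description and no independent support. The number of the 10 genes called depended mostly on single libraries. Shares of all genes called in the same fits are not given beside the counts below, and they can move too. Without mock fl/fl replicate 1, 15.1% of all genes were called for treated against mock fl/fl skin, against 0% with every library. The counts therefore do not show a change particular to the 10 genes. Leaving out 1 library gave 0 to 5 calls for treated against mock skin in fl/fl cells, 0 to 1 for tumors against mock skin in fl/fl and 0 to 6 in ΔK14 cells, and 1 to 3 for tumors against treated skin in fl/fl cells. Without a low-count filter 1 gene was called between genotypes in treated skin (Igfbp3, -1.23), and Bnip3 in fl/fl tumors against treated skin turned to -0.055. Bnip3 was -0.24 there with a replicate block, and -1.08 to 0.45 with 1 library left out. The block ended 1 call, that of Ankrd37 in ΔK14 tumors against mock skin (adjusted p = 0.0646), and changed no other. Some values that were not called also turned direction when 1 library was left out. Against mock skin, fl/fl tumors gave -0.47 to 0.32 for Adm and -1.59 to 0.021 for P4ha2, and P4ha2 gave -0.19 to 0.94 against treated skin. Plod2 gave -0.26 to 4.90 for treated against mock ΔK14 skin and -3.27 to 3.77 for the difference of that change between genotypes. With few libraries and few counts, differences of P4ha2 and Plod2 in mock skin could not be resolved. The cause of these shifts was not tested.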

Other observations

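The list of ER stress and amino acid response, which borders on Ero1l and Ddit4 in function, held calls in both directions in tumors of each genotype. In ΔK14 tumors against treated skin 6 of 14 genes were called higher, where 10.5% of all genes were, 1 was called lower, where 15.5% were, and the other 7 were not called. The ER chaperones Hspa5 (1.31 ± 0.21) and Hsp90b1 (1.24 ± 0.18), the disulfide isomerase Pdia4 (1.02 ± 0.17), the transcription factor Atf4 (1.17 ± 0.21) and the asparagine synthetase Asns (1.43 ± 0.24) were among them. In fl/fl tumors 5 of 14 were called higher, where 7.5% of all genes were, and 1 lower, where 10.5% were, with Atf4 at 1.61 ± 0.19, Hspa5 at 1.48 ± 0.20, Asns at 1.81 ± 0.27, Trib3 at 3.20 ± 0.53 and Dnajb9 at 1.60 ± 0.27. Ero1lb, the relative of Ero1l, was lower in both genotypes, by -1.29 ± 0.44 in ΔK14 and -1.69 ± 0.50 in fl/fl cells, while Ero1l was higher in every tumor than in any skin library. The medians of the list were 0.97 and 1.03. Between the genotypes of tumors none of the 14 was called by edgeR, where 0.0284% of all genes were, and the median was 0.12. Without overlap 3 were higher, where 13.6% of all genes were, and 1 was lower.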
